A study of Caenorhabditis elegans with 6 samples.

Results

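The *fbxa* and *fbxc* genes are paralogous families of *Caenorhabditis elegans* that encode F-box proteins. The 2 families were followed here as all genes of the deposited count table whose WormBase symbol begins with fbxa- or fbxc-. This rule gave 238 of the 20138 genes of the table, of which 188 are *fbxa* and 50 are *fbxc* genes. The data are poly(A)-selected paired-end RNA-seq of whole worms at day 1 of adulthood, with 3 libraries of wild type (WT) and 3 of worms labelled *fmo-4* OE, that is, overexpressing the flavin-containing monooxygenase gene *fmo-4*. All worms were untreated, were grown on plates with OP50 bacteria, and were pooled in large numbers for each library. The study describes a strain with *fmo-4* under the ubiquitous *eft-3* promoter and one under the hypodermal *dpy-7* promoter, both from randomly integrated multicopy arrays, and the labels do not say which was sequenced. The labels call the 3 libraries of a group biological replicates and do not say whether they were grown separately.

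F-box proteins are the interchangeable parts of SCF ubiquitin ligases. The F-box binds a Skp1-related adaptor, which sits on a cullin with a RING protein, and the rest of the F-box protein holds the substrate to be ubiquitinated. Nematodes carry very many F-box genes, which expand and turn over fast, many FBXA proteins have a domain shared with the sex determination protein FOG-2 behind the F-box, and most *fbxa* and *fbxc* genes have no described role. FBXA-75 and FBXA-158, which act with the cullin CUL-6 in the response to intracellular pathogens, were not analysed here.

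The libraries held 17576872 to 24943501 reads assigned to genes. The overexpressed gene was read first, as a check of the labels. *fmo-4* had 528, 449 and 462 normalized counts in the WT libraries and 425, 446 and 351 under the *fmo-4* OE label. The gene was thus not higher under the OE label in any library (log2 fold change -0.24, standard error (SE) 0.18, adjusted p = 0.947), and every direction given here is that of the libraries labelled *fmo-4* OE. The WT libraries also differed from each other. The 35 sperm genes (the major sperm proteins, *spe-9* and *spe-11*) summed to 502, 95.8 and 468 CPM (counts scaled to library size) in WT libraries 1, 2 and 3 and to 83.0 to 104 in the libraries labelled OE. Of the 29 tested in edgeR, 23 were lower at a p without adjustment below 0.05, against 3.01% of all genes, and 0 passed an adjusted p of 0.05. For 7 of the 29 all libraries labelled OE lay below WT, against 5.26% of all genes. The 8 early embryonic genes summed to 7.11, 14.2 and 5.54 CPM in WT and to 13.8 to 19.2 under the OE label. In these sums WT library 2 stood with the libraries labelled OE for both lists. The early embryonic sum was carried mostly by *sdz-28* (98.2, 195 and 71.3 normalized counts in WT). For *pes-10*, *tbx-38* and *end-1*, WT library 2 lay below every library labelled OE (*pes-10* at 52.0 against 61.7, 76.8 and 81.1). In whole-worm RNA, fewer cells of a type cannot be told apart from less RNA per cell.

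A large part of both families gave few reads. A filter on low counts, set on all genes, was passed by 103 of 188 *fbxa* genes (54.8%) and 33 of 50 *fbxc* genes (66.0%), against 66.6% of all genes of the table. The remaining family of this naming series, *fbxb*, passed at 91 of 110 (82.7%). Every gene of the table has at least 1 read, and 41 further genes of these names in RefSeq were not analysed here, so the shares are of the genes of the table and not of the whole families. At least 10 reads in every library were found for 82 *fbxa* and 24 *fbxc* genes. The 102 members below the filter had 2 to 61 reads over all 6 libraries together, with a median of 12 and no single count above 19. For 26 *fbxa* and 6 *fbxc* genes no library had more than 3 reads, so at this depth neither presence nor absence of the transcript can be stated. 8 members had no read in WT.

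Pseudogenes passed the filter in a like share to protein-coding genes in *fbxa*. Current annotation calls 49 members pseudogenes, and 24 of 41 *fbxa* pseudogenes (58.5%) passed the filter, a share close to that of the protein-coding *fbxa* genes (79 of 147, 53.7%). In *fbxc* the shares were 3 of 8 (37.5%) for pseudogenes and 30 of 42 (71.4%) for protein-coding genes, with 37.3% for all pseudogenes of the table. The tested *fbxa* pseudogenes had a median WT level of 5.11 CPM per kilobase of gene, above the 1.96 of the tested protein-coding *fbxa* genes, and the highest of them, *fbxa-193*, named after its values were seen, had 16, 17.2 and 16.6 in WT. Close paralogs share sequence and how reads that map to several copies were counted is not given in the sources used here, so the split between near-identical copies is uncertain. In current annotation 16 members also overlap a gene on the same strand and 18 a gene on the opposite strand.

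**Figure D1:**
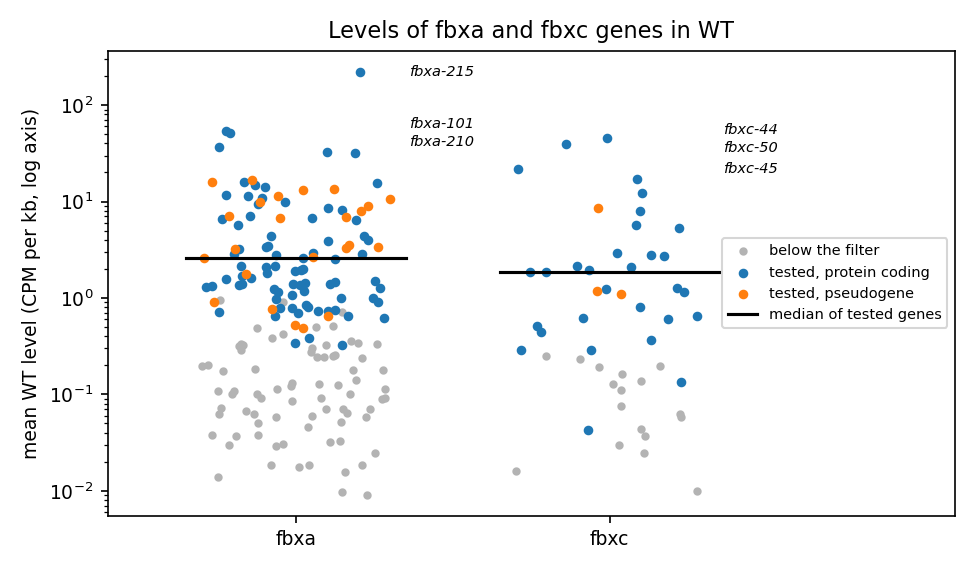
Mean WT level of each *fbxa* and *fbxc* gene, in CPM per kilobase of gene on a log axis. Blue and orange points are tested protein-coding genes and pseudogenes, grey points are members below the filter, black lines are medians of the tested genes, and the 8 members without a WT read are not drawn. *fbxa-215* stands alone at 221, while most members of both families lie below 10.

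Among the members that were read, a handful carried most of the signal. *fbxa-215*, a protein-coding gene on chromosome IV outside any cluster, reached 245, 210.4 and 207 CPM per kilobase in WT and 226, 190.3 and 189 under the OE label. It alone gave 30.3% of all *fbxa* reads, and the 5 *fbxa* genes with most reads gave 50.7%. Next in level came *fbxa-101* on chromosome I (53.4 ± 15.4 in WT, SD, n = 3) and *fbxa-210* on chromosome V (51.5 ± 12), which did not differ from each other beyond their spread. *fbxa-206* (36.4 ± 5.23) and *fbxa-192* (32.3 ± 2.15), both on chromosome V, followed. In *fbxc* the highest levels were those of *fbxc-44* (45.7 ± 8.56), *fbxc-50* (39.6 ± 8.55) and *fbxc-45* (21.5 ± 2.63). *fbxc-44* and *fbxc-50* overlapped in their spread, and both were above *fbxc-45*. *fbxc-32* (17.2 ± 0.895) and *fbxc-51* (12.4 ± 7.51) completed the top 5. Over the tested genes the median WT level was 2.57 for *fbxa*, 1.84 for *fbxc* and 0.832 for *fbxb*, against 10.4 for all genes tested.

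None of the 5 highest *fbxa* genes passed the test between the groups. *fbxa-215* differed by a log2 fold change of -0.13 (SE 0.14), and the other 4 by -0.37 to -0.20, each within 1.5 SE. Of these 5 only *fbxa-192* had groups that did not overlap, with 792, 828 and 902 normalized counts in WT and 688, 777 and 723 under the OE label (adjusted p = 0.917). The 4 highest *fbxc* genes lay at -0.06 to 0.21, with *fbxc-50* the highest of the 4, and had overlapping groups. *fbxc-51* was the exception among the highly expressed members.

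Both families sit towards the ends of chromosomes. Of all members, 92.4% lie among the outer 25% of the genes at either end of their chromosome (93.6% of *fbxa* and 88.0% of *fbxc*), where 50% of all genes lie by construction. The *fbxa* genes are mostly on chromosomes V (79) and III (63), with 15 on II, 13 each on I and X and 5 on IV. Of the *fbxc* genes 39 are on chromosome II, 8 on IV, 2 on X and 1 on V. They are genes of like build: 75.2% of members have 3 or 4 exons, against 25.1% of all genes. The median coding length is 948 bases in *fbxa* and 1125 in *fbxc*, against 1020 over all genes. A column of the deposited table with 1 family label per gene reads F-box for 108 of the 188 *fbxa* genes and for 0 of the 50 *fbxc* genes. The same column labels the F-box genes *lin-23* and *sel-10* as WD40 and gives *mec-15* no label. A missing label there thus does not show a missing F-box, and membership by name and by this label are not the same set.

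Many members are neighbours. When members at most 20 kb apart were joined, 148 of 238 (62.2%) fell into 20 runs of 3 or more, of which 15 held *fbxa* genes alone, 1 held *fbxc* genes alone and 4 held both. Neighbouring members lay on the same strand in 77 of 128 pairs. The filter was passed by 80 of the 148 members in runs and by 56 of the 90 outside. The largest run has 27 *fbxa* genes over 109 kb of the left arm of chromosome III (chrIII:1236015-1344692, in the coordinates of the deposited table, which lie on the same chromosomes as in WBcel235). The next has 23 *fbxc* genes and *fbxa-200* over 88.7 kb of the left arm of chromosome II (chrII:904446-993179). The highest level per run was found in neither. The 5 members of a run at chrV:18123977-18137714, which includes *fbxa-210*, summed to 96.4 CPM per kilobase in WT, and the 5 at chrV:17637982-17658200, which includes *fbxa-192*, to 87.7, while the 27 members of the largest run summed to 23.2.

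Of the 2 families, almost only *fbxc* held genes that passed the test between the groups. Of the 33 tested *fbxc* genes 10 were higher under the *fmo-4* OE label and 0 were lower, at a p without adjustment below 0.05, and their median log2 fold change was 0.54 (quartiles 0.21 and 1.13). Of the 103 tested *fbxa* genes 1 was higher, *fbxa-168*, and 0 were lower, and their median was -0.17 (quartiles -0.40 and 0.03). Over all 13413 genes tested, 4.32% were higher and 3.01% lower at the same threshold, with a median of -0.02. The *fbxc* share of 30.3% was thus above this background and the *fbxa* share of 0.971% below it. A call below means this unadjusted threshold. No member passed an adjusted p of 0.05 in edgeR's quasi-likelihood test, where 0.0149% of all genes were higher and 0.0298% lower, nor in DESeq2. The smallest adjusted p was 0.583 in *fbxc* and 0.655 in *fbxa*. The difference between the 2 families was not tested.

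The filter bears on the *fbxc* count. Of the 33 tested *fbxc* genes 23 reached the minimum in all libraries of both groups, and 6 of these were higher. Another 7 reached it in all 3 libraries labelled OE but not in all of WT, and these gave the other 4 (*fbxc-20*, *fbxc-22*, *fbxc-26* and *fbxc-53*). Among the 24 *fbxc* genes with at least 10 reads in every library the median was 0.49 and 19 lay above 0. *fbxa-168* also passed through the libraries labelled OE alone. PC1, the axis of largest variance, ran from -57.9 in WT library 1 to 52.4 in library 3 labelled OE, and with it as a covariate 5 members were higher, all *fbxc*, where 2.16% of all genes were higher, and the *fbxa* median was 0.05.

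All 10 *fbxc* genes called higher are on chromosome II. There, 28 *fbxc* genes were tested, 10 (35.7%) were higher, 25 had a log2 fold change above 0, and the median was 0.76. The 5 tested *fbxc* genes on other chromosomes, *fbxc-5*, *fbxc-37*, *fbxc-45*, *fbxc-46* and *fbxc-58*, had log2 fold changes of -0.45 to 0.51 and none passed. Chromosome II as a whole had a median of 0.00 and 5.98% of its genes higher. Of the other genes among the first 25% along the chromosome, with the F-box families left out, 40 of 446 (8.97%) were higher with a median of 0.11. The 10 tested *fbxa* genes of chromosome II had a median of 0.19, against -0.20 for the 93 elsewhere. The small number of *fbxc* genes off chromosome II leaves the difference between chromosomes untested.

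*fbxc-53*, on chromosome II outside the runs, had the largest change of any member. It had 1.01, 0 and 2.64 normalized counts in WT and 20.6, 14.1 and 18.1 under the OE label, which is 4 against 52 raw reads. It was named for this gap between the groups. The ratio of these pooled raw reads, scaled to the summed library sizes of each group, was 13.1 and is a description. The fitted log2 fold change was 3.63 (SE 0.75, adjusted p = 0.583), and 4.74 without WT library 3. *fbxc-22* likewise had groups far apart, at 2.02, 3.39 and 5.28 in WT and 22.9, 17.8 and 21.9 under the OE label (log2 fold change 2.49, SE 0.51, adjusted p = 0.583). *fbxc-20* had 5.06, 15.8 and 0.88 in WT and 17.1, 37.5 and 42.0 under the OE label (2.19, SE 0.80, adjusted p = 0.597, and 3.43 without WT library 2). All 3 were near the lower limit of what could be read in WT, and *fbxc-20* shares part of its position with another gene of the same strand, so reads of either cannot be told apart there.

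The member with the largest gain in reads was *fbxc-51*, on chromosome II at 868814 to 871700, upstream of the large *fbxc* run and not part of it. It had 193, 696 and 369.5 normalized counts in WT and 675, 1114 and 1219 under the OE label (log2 fold change 1.26, SE 0.46, adjusted p = 0.597). WT library 2 lay above library 1 labelled OE, so the groups overlapped. In level this was 12.4 ± 7.51 against 29.5 ± 8.50 CPM per kilobase, which placed the mean of *fbxc-51* below that of *fbxc-45* in WT and above it under the OE label. The order was the reverse in WT library 2 (20.5 against 18.7) and in library 1 labelled OE (19.9 against 22.5). *fbxc-25*, also outside the runs, was the other called gene with overlapping groups, at 21.3, 22.6 and 45.7 in WT and 33.2, 77.7 and 86.8 under the OE label (1.13, SE 0.48, adjusted p = 0.660).

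**Figure D2:**
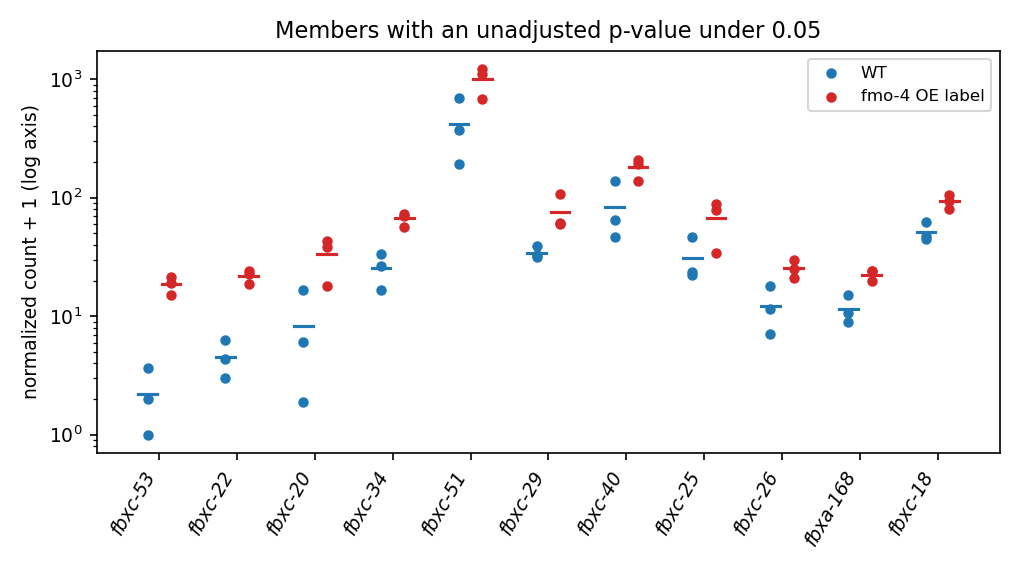
Normalized count plus 1, on a log axis, of the 11 *fbxa* and *fbxc* genes with an unadjusted p under 0.05, ordered by fold change. Points are the 3 libraries of WT (blue) and the 3 labelled *fmo-4* OE (red), and bars are their means. All 11 are higher under the OE label, and the groups overlap only for *fbxc-51* and *fbxc-25*.

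The large run on chromosome II held 4 of the genes called higher. *fbxc-34* had 25.3, 32.8 and 15.8 normalized counts in WT and 56.0, 72.1 and 69.6 under the OE label (log2 fold change 1.43, SE 0.36, adjusted p = 0.583). *fbxc-29* had 30.4, 31.6 and 37.8 against 59.5, 59.9 and 107 (1.18, SE 0.34, adjusted p = 0.583). *fbxc-40* had 45.6, 138 and 63.3 against 138, 193 and 209 (1.14, SE 0.42, adjusted p = 0.597). In *fbxc-40*, WT library 2 reached the lowest library labelled OE to within 1 count, while in the other called genes of the run the groups were well apart. *fbxc-18* had 46.6, 61.0 and 44 against 92.6, 79.6 and 104 (0.87, SE 0.27, adjusted p = 0.583). The groups also did not overlap for *fbxc-30* (2.02, 9.04 and 11.4 against 19.4, 17.8 and 19.1) and *fbxc-14* (8.10, 18.1 and 10.6 against 28.6, 19.7 and 24.8), neither of which passed the test.

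Within this run the change was uneven. Of its 15 tested members 14 had a fold change above 0 and the median was 0.71, but the run's most highly expressed gene, *fbxc-32*, had 469, 485 and 437 normalized counts in WT and 549, 427 and 390.2 under the OE label (-0.03, SE 0.19). *fbxa-200*, at the start of the run, was at 0.00 (SE 0.24) and *fbxc-42*, at its end, at 0.21 (SE 0.24). Fold changes of 0.36 to 0.81 that did not pass were found for *fbxc-24*, *fbxc-28*, *fbxc-33*, *fbxc-36*, *fbxc-39* and *fbxc-57*. The other 9 members of the run were below the filter. The run also encloses 10 genes of other kinds, of which 5 were tested and 0 were called, with a median of 0.38.

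2 shorter runs of chromosome II held the remaining calls inside *fbxc* runs. In the 4-gene run at chrII:1689696-1711417, *fbxc-22* and *fbxc-26* were called higher, while *fbxc-21* between them was at 0.59 (SE 0.53) and *fbxa-184* at 0.34 (SE 0.33). *fbxc-26*, which shares its position with a gene of the same strand, had 6.07, 16.9 and 10.6 against 24.0, 29.0 and 20 (1.12, SE 0.48, adjusted p = 0.667). In the run at chrII:2410773-2420794, *fbxc-20* was called higher and its *fbxa* neighbours *fbxa-4* (0.34, SE 0.32) and *fbxa-182* (0.27, SE 0.48) did not pass. *fbxa-168*, a pseudogene on the right arm of the chromosome, had 14.2, 7.91 and 9.68 against 22.9, 18.7 and 22.9 (1.01, SE 0.42, adjusted p = 0.655) and likewise overlaps another gene on its strand. *fbxc-25*, *fbxc-26* and *fbxa-168* were named after their values were seen.

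Across *fbxc* genes of chromosome II the fold change was larger where the WT level was lower (Spearman's rho -0.55 over 28 genes). Both measures rest on the same WT counts, and 7 *fbxc* genes passed the filter through the libraries labelled OE alone and 0 through WT alone. The value is thus not free of the way the genes were measured and selected, and nothing is read from it. The correlation was 0.01 over the 103 *fbxa* genes, whose measures share WT counts in the same way. Of these, 5 passed through the libraries labelled OE alone and 8 through WT alone. The share of genes whose groups did not overlap followed the calls: 11 of 33 *fbxc* genes lay above WT in all 3 libraries labelled OE and 0 lay below, against 5.85% and 5.26% of all genes tested. Of these 11, *fbxc-20*, *fbxc-22*, *fbxc-26* and *fbxc-53* passed the filter through the libraries labelled OE alone. The number is thus not free of the selection either and is no separate support for the calls. In *fbxa* the numbers were 2 above and 6 below of 103, the latter near the share over all genes.

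**Figure D3:**
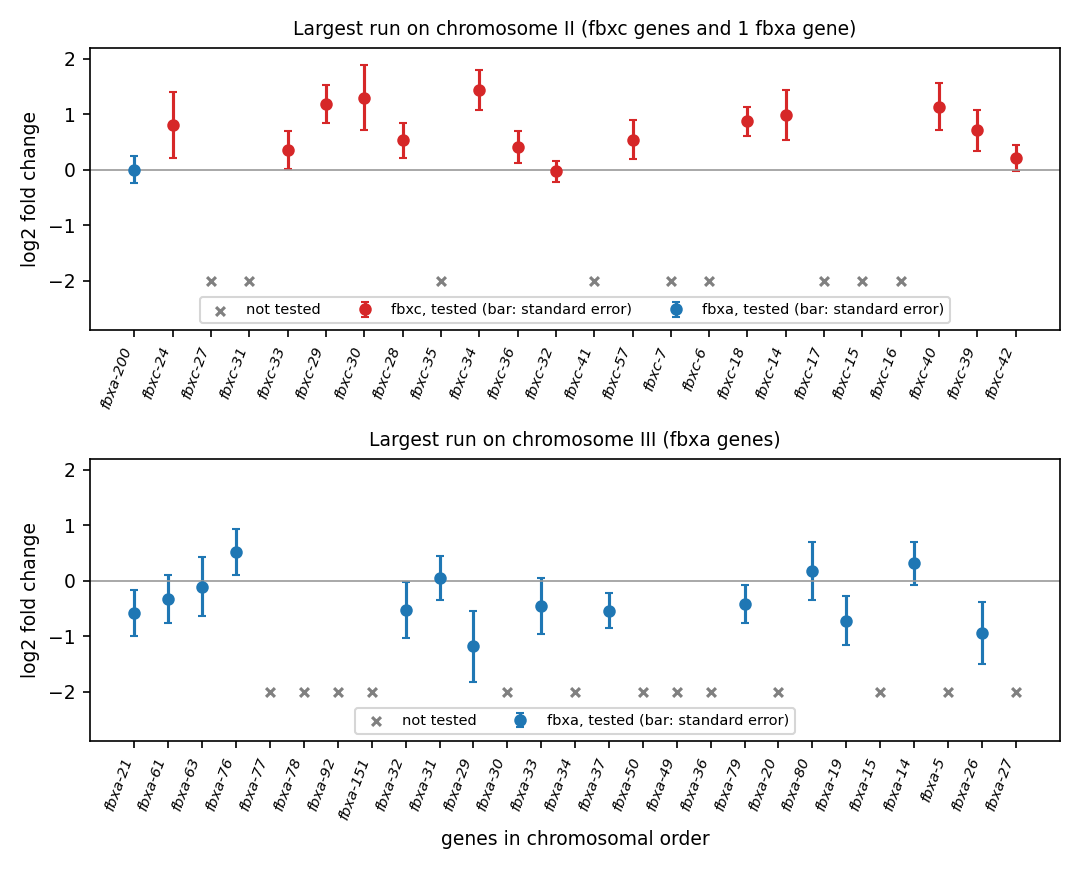
Log2 fold change (libraries labelled *fmo-4* OE against WT) of the tested members of the largest run of chromosome II (top) and of the largest run of chromosome III (bottom), in chromosomal order, with bars of 1 SE; crosses at the bottom mark members that were not tested. On chromosome II 14 of 15 points lie above 0, and on chromosome III 10 of 14 lie below 0 with no gene called.

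No *fbxa* gene passed the test as lower, and 74 of the 103 tested had a log2 fold change below 0, against 7079 of all 13413 genes tested. With PC1 as a covariate 60 of the 103 lay above 0. In the 27-gene run of chromosome III, 14 members were tested and 0 were called. Their fold changes ran from -1.18 to 0.52 with a median of -0.44, and 10 were below 0. The lowest, *fbxa-29*, had 42.5, 11.3 and 20.2 normalized counts in WT and 13.7, 4.68 and 14.3 under the OE label, so that its groups overlapped and its value rested mostly on WT library 1 (SE 0.64, adjusted p = 0.793). *fbxa-37* of the same run had groups that did not overlap, at 44.5, 42.9 and 33.4 against 27.4, 31.8 and 23.8 (-0.54, SE 0.32, adjusted p = 0.844). Of the 14 runs of *fbxa* genes alone with a tested member, 12 had a median below 0. Some of these runs held only 1 or 2 tested genes, and some of the medians were as near 0 as -0.04. By chromosome the *fbxa* median was -0.17 on I (13 genes), 0.19 on II (10), -0.31 on III (32), -0.05 on IV (3), -0.20 on V (38) and -0.42 on X (7). In summed level the family had 1146, 966 and 924 CPM in WT and 1041, 845 and 805 under the OE label, groups that overlapped, while *fbxc* had 212, 225 and 231 against 251, 301 and 309, which did not.

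The libraries behind these medians were not alike. The median deviation of the *fbxc* genes of chromosome II from their own 6-library mean was -0.65, -0.13 and -0.38 in WT libraries 1, 2 and 3 and 0.27, 0.31 and 0.52 in the libraries labelled OE, so that WT library 2 lay nearest to the OE label. The *fbxa* medians were 0.25, 0.04 and -0.01 against 0.15, -0.06 and -0.23. Of the 28 *fbxc* genes of chromosome II, 14 had their lowest value in WT library 1 and 10 had their highest in library 3 labelled OE. For all 33 tested *fbxc* genes they were -0.53, -0.15 and -0.16 in WT and 0.27, 0.28 and 0.52 under the OE label, so that WT libraries 2 and 3 were alike. The median deviation of the sperm genes was 1.62, -0.82 and 1.60 in WT and -0.90 to -0.62 under the OE label, and that of the early embryonic genes -1.39, 0.37 and -0.96 in WT and 0.60 to 0.72 under the OE label. 2 of the 4 tested early embryonic genes, *pes-10* and *tbx-38*, were higher, against 4.32% of all genes. *tbx-38* had 1, 8 and 3 raw reads in WT and 10, 13 and 17 under the OE label, and passed the filter through the latter alone. Of the early embryonic genes below the filter, *end-3*, *med-2* and *sdz-1* had overlapping groups and *tbx-37* did not. Of the 10 oocyte and germline genes 0 were called. The part of these markers in the *fbxc* result was not tested. Without WT library 2 the *fbxc* median was 0.68 and 14 *fbxc* genes were higher, with 6.96% of all genes higher. Without WT library 1, 6 were higher (2.12% of all genes), and without library 3 labelled OE, 4 (1.59% of all genes), so the calls of all genes moved with those of *fbxc*.

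**Figure D4:**
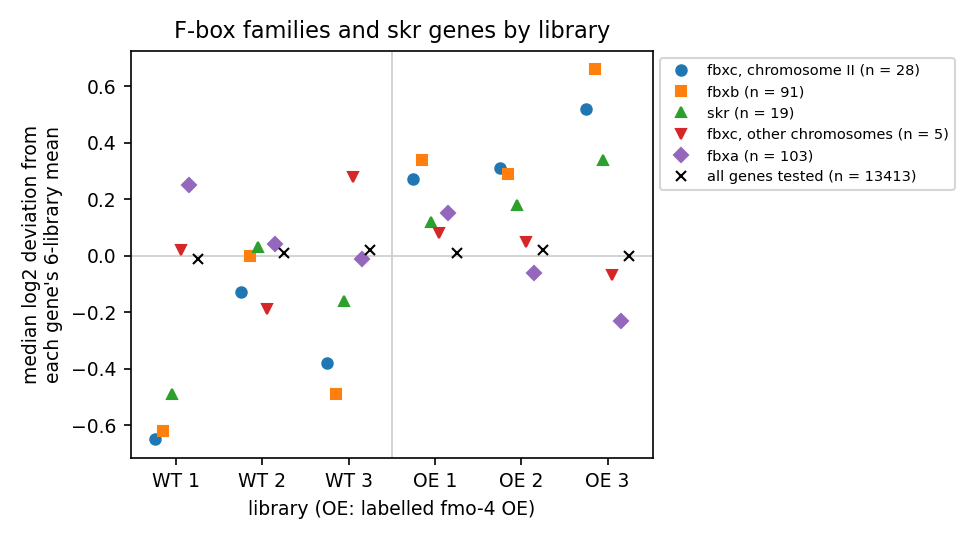
Median over genes of the log2 deviation of each library from the gene's own mean over 6 libraries, for the tested genes of each group named in the key, with the number of genes. The *fbxc* genes of chromosome II, *fbxb* and *skr* genes lie at or below about 0 in WT and above 0 in all 3 libraries labelled OE, whereas *fbxa* genes run from 0.25 in WT library 1 to -0.23 in library 3 labelled OE.

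The *fbxb* genes, the family most like these by name and size, had a share of calls near that of *fbxc*. Of 91 tested 28 (30.8%) were higher and 0 lower, and the median was 0.77. On chromosome II 18 of 55 were higher (median 0.76) and elsewhere 10 of 36 (median 0.81). 32 of the 91 passed the filter through the libraries labelled OE alone. Among the 52 with at least 10 reads in every library 16 were higher and all 52 had a fold change above 0. *fbxb-101* had 10.1, 14.7 and 16.7 normalized counts in WT and 51.4, 66.5 and 86.8 under the OE label (2.29, SE 0.37, adjusted p = 0.254), with no overlap of the groups. In DESeq2 *fbxb-101* and *fbxb-7* passed an adjusted p of 0.05, among 92 genes that did so.

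Among the partners of F-box proteins the calls fell on Skp1-related adaptors. Of the 19 *skr* genes tested, 7 were higher (*skr-7*, *skr-8*, *skr-9*, *skr-10*, *skr-13*, *skr-14* and *skr-21*), and the median was 0.37. *skr-10* had 92.1, 115 and 90.6 against 173, 218 and 207 (1.01, SE 0.23, adjusted p = 0.583), and *skr-9* had 51.6, 89.3 and 73.0 against 137, 133 and 172 (1.05, SE 0.28, adjusted p = 0.583). The adaptors of highest level did not change detectably: *skr-1* was at 0.10 (SE 0.19) and *skr-2* at -0.08 (SE 0.15). Of the other 18 genes of the ligase core, which include the cullin scaffold *cul-1* (0.02, SE 0.12), the RING proteins, the NEDD8 pathway, *cand-1* and the COP9 signalosome, 0 were called and the median was -0.03. Of 11 single-copy or separately named F-box genes, such as *lin-23*, *sel-10* and the germline gene *fog-2*, 0 were called and the median was -0.10. Of 6 tested genes of the intracellular pathogen response, *cul-6* (-0.18, SE 0.33) and *skr-3* (-0.14, SE 0.17) included, 0 were called. Of the same list, *pals-5* was not analysed. *skr-5* was below the filter, with 4, 4 and 1 raw reads in WT and 0, 0 and 1 under the OE label. Whether the response was active is thus not read from these genes.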

How the data were processed

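RNA was taken from whole day 1 adults (WT and *fmo-4* OE, 3 libraries each). The deposited table gives raw read counts per gene; the labels name fastp, HISAT2, StringTie and featureCounts without versions, and the strand setting, treatment of reads with several positions and genome build are not given in the sources used here. The authors' normalized values, fold changes and p-values in the table were not used, nor were 66 columns of single libraries in it or in the shorter lists. Counts were fitted in edgeR 4.0.16 (R 4.3.3; filterByExpr, TMM, robust quasi-likelihood F-test, all 6 libraries, no covariate), with Benjamini-Hochberg adjustment over 13413 genes. A gene was called at an unadjusted p under 0.05. The common biological coefficient of variation was 0.297. Normalized counts are counts scaled to the mean effective library size, and levels are CPM divided by the deposited gene length in kilobases. The per-library deviations used a pseudocount of 1. P-values measure the spread between these 6 libraries. The script was tested on simulated data.

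Of 20138 sequence names 19842 matched a WormBase gene. 189 members took their symbol from the gene name table and 49 from RefSeq (all pseudogenes in current annotation; 28 members are pseudogenes in the deposited table). The members, lists and tests were chosen with earlier results of these data known. Named genes were the 5 members of each family highest in WT, the 6 largest fold changes among called members in each direction, members with at least 10 reads in every library of 1 group and at most 3 in the other, the members of the largest run and of any run with at least 3 calls, and called genes of the lists; ranking pairs by protein identity was not run. Lists for hypodermis, intestine, body wall muscle and neurons had 1 of 2 (*dpy-7*), 0 of 4, 0 of 3 and 1 of 3 (*unc-119*) tested genes called higher and 0 called lower. Alternatives were DESeq2 1.42.0, RLE factors, library size alone, 2 other filters, a replicate block, PC1 as covariate, leaving out each library, and gaps of 10 and 50 kb for runs.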

Additional observations from a re-analysis of the deposited data

How the results depend on the processing

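All 11 called members kept a log2 fold change above 0 wherever they were tested, and no member passed an adjusted p under any alternative. The calls were less stable. *fbxc-22*, *fbxc-34* and *fbxc-53* stayed called in every alternative that tested them, *fbxc-29* lost its call with PC1 and *fbxc-18* without OE library 3. *fbxc-51* was called in 9 of 13 alternatives, *fbxc-25* and *fbxc-40* in 8 of 13, *fbxc-20* in 8 of 12, *fbxc-26* in 4 of 12 and *fbxa-168* in 3 of 12, and all 6 lost the call with PC1 and without OE library 2 or 3; *fbxc-26* and *fbxa-168* also lost it in DESeq2 and with the block. The count of higher members, 11, was 7 with at least 10 counts in every library and 5 with PC1 as covariate, and 4 to 15 when each library was left out (4 without OE library 3, 7 without WT library 1 or OE library 2, 15 without WT library 2), while the share of all genes called higher, 4.32%, was 4.39%, 2.16%, 1.59%, 2.12%, 2.44% and 6.96% in the same order. The count of lower members, 0, was 2 of 238 without a filter and 1 of 136 with PC1. It was 0 to 7 when each library was left out, with 7 of 145 without WT library 2. Over all genes, 491 of 20138 were lower without a filter, 778 of 13413 with PC1 and 653 of 14003 without WT library 2. The replicate block gave 10 higher members, of which 9 were called without it, and 1 lower. With the block 5.64% of all genes were higher and 505 of 13413 were lower. Deviations from the group means correlated at 0.428, -0.309 and 0.356 between same-numbered libraries. Between differently numbered ones they correlated at -0.579 to 0.512. With 3 libraries per group these values cannot settle whether the numbers pair the samples. The *fbxa* median of -0.17 was 0.05 with PC1 and -0.27 to -0.06 when each library was left out. The *fbxc* median of 0.54 was 0.38 with PC1 and 0.46 to 0.74. Among genes near 0, signs turned with PC1 for *fbxa-215* (0.05), *fbxa-101* (0.11), *fbxa-210* (0.18), *fbxa-206* (0.09), *fbxc-50* (-0.06), *fbxc-45* (0.10), *fbxc-32* (0.17) and *fbxc-36* (-0.06), without a filter for *fbxc-45* (0.02) and *fbxc-32* (0.00), and with at least 10 counts in every library for the same genes (0.01 and 0.00). When each library was left out, *fbxc-44* ran from -0.21 to 0.04, *fbxc-45* from -0.11 to 0.06, *fbxc-32* from -0.16 to 0.08 and *fbxa-200* from -0.10 to 0.17. Runs numbered 20 at 20 kb, 21 at 10 kb and 21 at 50 kb.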

Other observations

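Below the filter, 10 of the 85 untested *fbxa* genes had groups that did not overlap, 5 with all libraries labelled OE above WT and 5 below, and 0 of the 17 untested *fbxc* genes did; over all genes tested the shares were 5.85% above and 5.26% below, which these counts are near. *fbxa-66*, in a run of chromosome III, had 10, 11 and 8 raw reads in WT and 2, 5 and 1 under the OE label. *fbxa-82*, on chromosome V, had 7, 7 and 9 against 12, 10 and 15. Both were picked for these values and received no test.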
